A study of Gallus gallus with 8 samples.

Results

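Heparan and chondroitin sulfate proteoglycan genes were followed in 2 dissected tissues of the chick embryo. They were taken by a fixed list of array symbols. It covered glypicans (GPC), syndecans (SDC), perlecan (HSPG2), agrin (AGRN) and many enzymes that start, extend, epimerize, sulfate or desulfate the sugar chains. Some chondroitin enzymes of these kinds, such as CHPF, DSE and UST, lay outside it and are counted with the further pathway genes below. The list gave 47 genes of the 13009 named by a single symbol on the array, covered by 94 of 38439 probe sets. A further probe set that matched carried several symbols and was left unassigned. The cranial neural fold, the raised edge of the neural plate that holds the future neural crest, was set against ventral neural plate dissected from the same head region, each with 4 arrays. All embryos were at stage 8 of Hamburger and Hamilton and unmanipulated as far as the labels say, with no strain or sex given. Between 80 and 114 embryos were dissected, per the series text, without saying how they were shared among samples. The error behind each p-value is thus the scatter of 4 samples per tissue, which may be technical in part.

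Heparan sulfate proteoglycans are core proteins that carry long sulfated sugar chains on the cell surface and in the matrix. A xylosyltransferase starts the chain on a serine of the core protein, EXT enzymes extend it, and NDST, GLCE and the HS2ST, HS6ST and HS3ST enzymes modify it as it grows. After secretion, the SULF endosulfatases remove 6-O-sulfate groups. The pattern of sulfate sets how chains bind Wnt, FGF, BMP and hedgehog proteins, signals that pattern the neural tube and induce the neural crest. Chondroitin sulfate chains start from the same linkage sugars, are extended by CHSY enzymes and sulfated by CHST enzymes, and their carriers such as versican line the paths of migrating crest cells.

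Values are normalized intensities of the brightest probe set of each gene, on a linear scale without unit. Changes are log2 differences, neural fold minus neural plate, of intensity plus 16, with the limma SE. A gene was called at a limma adjusted p under 0.05 over all 23063 probe sets tested, where 1.28% of probe sets were called. An intensity was read as above background where it exceeded a per-array limit of 40.5 to 84.6, taken from control probe sets for sequences absent from the chick. The dissections carried their labels' markers. Of 10 border and crest markers such as PAX7 and SNAI2, 9 were called higher in neural fold, and 5 of 7 ventral markers such as NKX6-1 and SHH were called lower. Both arrays numbered 1 stood apart, with median deposited intensities of 195.8 (neural fold) and 182.3 (neural plate), while the remaining 6 ranged between 105.4 and 121.7. In bulk tissue, fewer cells of a type and less RNA per cell cannot be told apart.

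No proteoglycan gene passed the test in the comparison of all 8 arrays. The largest fitted changes were those of HS3ST2, a sulfotransferase, higher in neural fold but near background in neural plate, and of SULF1, an endosulfatase, 2.39-fold lower in neural fold. By limma, 0 of the 35 members tested were called, against 1.75% of all 10279 genes tested (0.924% higher and 0.827% lower). With the array number as a block, SULF1 was called lower (1 of 35 members, against 2.3% of all genes, 1.11% higher and 1.19% lower). Without both arrays numbered 1, SULF1 and SULF2 were called lower (2 of 35 members, against 3.05% of all genes, 1.48% higher and 1.57% lower).

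At an unadjusted p under 0.05, 6 members differed, SDC1, HS3ST2 and HS6ST2 higher and GPC4, SDC2 and SULF1 lower in neural fold. That is 17.1% of the members tested, against 9.07% of all genes (4.01% higher and 5.06% lower). The 4 arrays of one tissue lay wholly apart from those of the other for 3 members, HS3ST2, HS6ST2 and SDC2. This is 8.57% of the members, close to the 8.06% of all genes (3.55% higher and 4.5% lower). The median change of the 35 was -0.04, against -0.01 over all tested genes, and 28 of them (80.0%) had changes within 0.5 of 0 on the log2 scale, against 85.6% of all genes. The 95% interval of the change lay within a 2-fold difference either way for 23 of 35 members (65.7%), against 68.6% of all genes. For the other 12, a 2-fold difference in at least one direction was not excluded by these arrays.

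**Figure D1:**
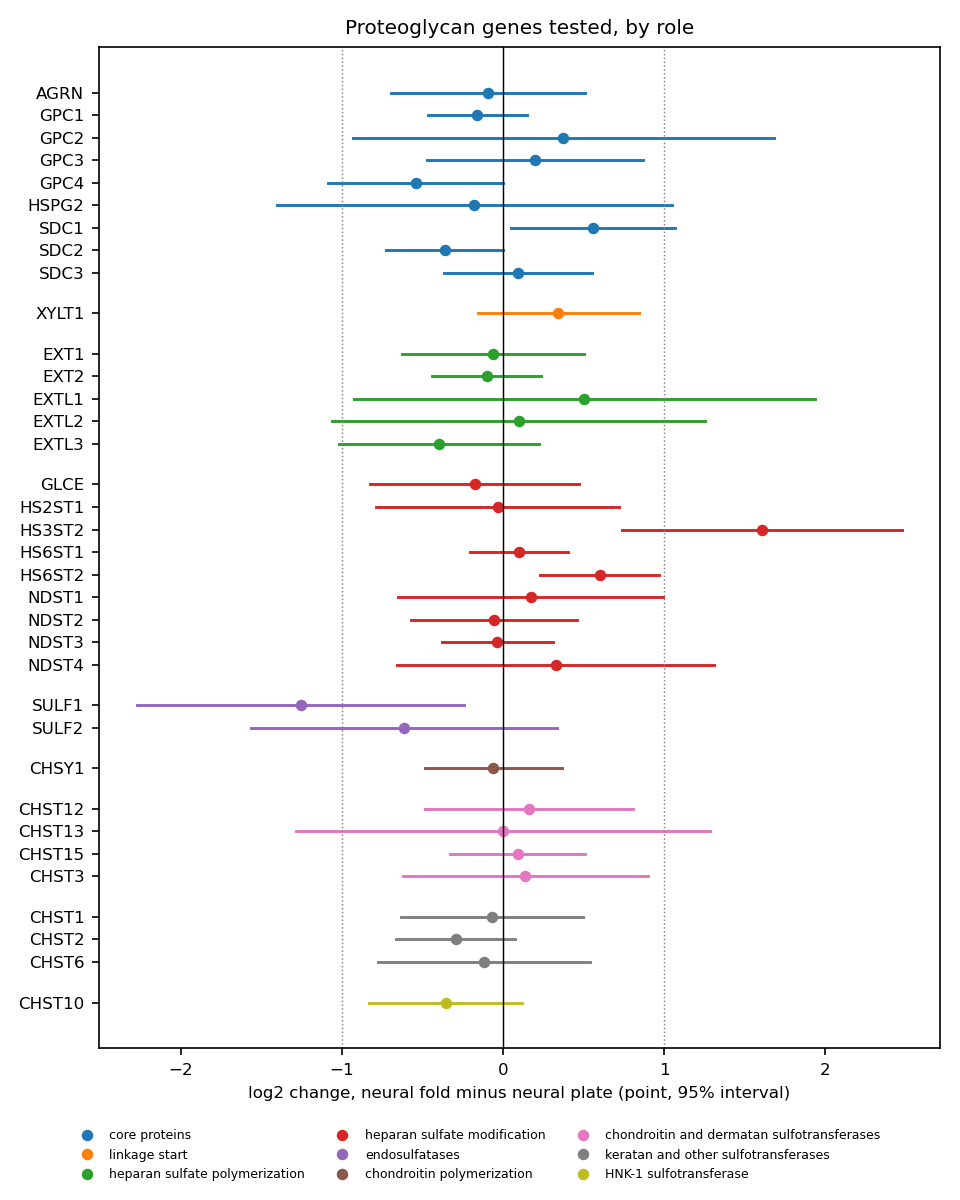
Log2 change, neural fold minus neural plate, of the 35 proteoglycan genes tested, grouped by role, with the fitted change as a point and its limma 95% interval as a line (4 arrays per tissue). Dotted lines mark a 2-fold difference. Most intervals span 0. Those of HS3ST2 (1.61), HS6ST2 (0.60) and SDC1 (0.56) lie to the right of it, and those of SULF1 (-1.26), GPC4 (-0.54) and SDC2 (-0.36) to the left, the last 2 ending close to 0.

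Among the core proteins, 9 of 11 were tested and 0 were called. Syndecans are transmembrane carriers that act as co-receptors. SDC1, the syndecan typical of epithelia, had intensities of 1115, 1713, 1596 and 1717 on neural fold arrays 1 to 4, against 735, 1096, 1267 and 1069 on neural plate arrays 1 to 4. The lowest fold array lay within the plate range, and the fold array was higher in each of the 4 same-numbered pairs. For such agreement, here and for genes below, the share over all genes was not computed. It also held for members with small changes, such as HS6ST1 and NDST1, and the labels do not say that numbers mark pairs. The change was 0.56 ± 0.22 (SE, adjusted p = 0.52), and that of a dimmer SDC1 probe set was smaller, at 0.19. SDC2 had 2170.4, 2846, 2640.1 and 2698 in neural fold, against 3066, 2969.8, 3731 and 3560.1 in neural plate. Its tissues did not overlap, with a change of -0.36 ± 0.16 (adjusted p = 0.60), and its other probe set, at -0.54, did not overlap either. SDC3 differed by 0.09 ± 0.20.

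Glypicans are carriers tied to the membrane by a lipid anchor. GPC4 had 1551, 990.1, 1139 and 993 in neural fold, against 2478, 1443, 1558 and 1431 in neural plate. In both tissues array 1 was the highest, which made the ranges overlap, while each fold array lay below the plate array of its number by 0.45 to 0.67 on the log2 scale. The change was -0.54 ± 0.24 (adjusted p = 0.60). GPC1 had 2811, 2350.3, 2399 and 2553 in neural fold, against 2914, 2816, 2842 and 2721 in neural plate, and differed by -0.16 ± 0.13 (95% interval -0.47 to 0.15). A dimmer GPC1 probe set did not overlap between the tissues, at -0.38 ± 0.14 (adjusted p = 0.42). GPC3 differed by 0.20 ± 0.29. GPC2 is uncertain, since its brighter probe set differed by 0.37 ± 0.57 and a dimmer one by -0.75 ± 0.49. GPC5 and GPC6 were too dim to test.

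Agrin and perlecan are large heparan sulfate carriers of basement membranes. AGRN had 4719, 2597, 2529 and 3412 in neural fold, against 4901, 2947, 3378 and 2832 in neural plate. Its ranges overlapped almost fully, with a change of -0.10 ± 0.26. HSPG2 had 930.3, 354, 317 and 406 in neural fold, against 1498, 349, 443 and 302 in neural plate. Array 1 was far above the other arrays of its tissue, and the change of -0.18 ± 0.54 had an interval of -1.40 to 1.05.

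Of the enzymes that start and extend heparan sulfate, 6 of 7 were tested and 0 called. XYLT1, which puts the first xylose on the core protein, had 241, 216, 243 and 246 in neural fold, against 159, 229.8, 243 and 124 in neural plate, a change of 0.34 ± 0.22 (adjusted p = 0.88). Its 3 tested probe sets had changes of 0.28 to 0.38, while XYLT2 was too dim to test. EXT1 and EXT2 together form the polymerase. EXT1 differed by -0.06 ± 0.25 (95% interval -0.63 to 0.50) and EXT2 by -0.10 ± 0.15 (-0.44 to 0.24), so a 2-fold difference lay outside both intervals. EXTL3, which adds the first N-acetylglucosamine and so commits a chain to heparan sulfate, differed by -0.40 ± 0.27 (adjusted p = 0.91). It was lower in neural fold in each of the 4 same-numbered pairs (share over all genes not computed), and its 3 probe sets had changes of -0.41 to -0.25. EXTL1 and EXTL2 had wide intervals (-0.93 to 1.94 and -1.06 to 1.25).

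The enzymes that modify the chain in the Golgi held both members with the largest log2 changes above 0 whose tissues did not overlap. Of 14, 9 were tested and 0 called. HS6ST2, which adds sulfate at the 6-O position of glucosamine, had 4184, 3417, 3687 and 3393 in neural fold, against 2809, 2619, 2162 and 2113 in neural plate. Every fold array lay above every plate array. The neural fold mean was 3670.2 ± 367 and the neural plate mean 2426 ± 342 (SD, n = 4 each), a change of 0.60 ± 0.16 (adjusted p = 0.19, 0.053 to 0.84 over 18 alternative settings). Its other probe set had 1412, 1431, 1732 and 1830.1 in neural fold, against 824, 1021, 864 and 1111 in neural plate, again without overlap (0.74 ± 0.17, adjusted p = 0.11).

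HS3ST2, a 3-O-sulfotransferase known from mammalian brain, had 204, 157, 187 and 154 in neural fold, against 82.4, 17.2, 28.5 and 89.5 in neural plate. It lay above the background limit on all 4 fold arrays and on 1 of 4 plate arrays, and its neural plate level alone would not have passed the filter on dim probe sets. The size of its change is therefore uncertain. The fitted change was 1.61 ± 0.38 (adjusted p = 0.12, 0.068 to 0.33 over 17 alternative settings), without overlap between the tissues. It has a single probe set. Some markers of non-neural ectoderm, which adjoins the fold, were also higher in neural fold. Of 5 tested, 2 were called higher, CDH1 by 4.92-fold and TFAP2C by 5.56-fold. The sum over 6 ran from 13249.5 to 16009.6 in neural fold and from 9020.45 to 10364.6 in neural plate, most of it from EPCAM, which was not called (1.38-fold higher, adjusted p = 0.27). GATA2 differed by only 0.06 ± 0.62, and DLX3 was at background on all arrays. The border and crest markers were higher in neural fold too. The part of either cell type in the HS6ST2 and HS3ST2 values was not tested.

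Of the remaining modifying enzymes, HS6ST1, the relative of HS6ST2, had 1549.9, 1509, 1612 and 1491 in neural fold, against 1535, 1449, 1291 and 1480.2 in neural plate. These ranges overlapped, with a change of 0.10 ± 0.13 and an interval of -0.21 to 0.41. NDST enzymes replace acetyl groups with sulfate and so open the chain to later steps. NDST2 differed by -0.06 ± 0.22, NDST3 by -0.04 ± 0.15, NDST1 by 0.17 ± 0.36 and NDST4 by 0.33 ± 0.43. GLCE, the epimerase, differed by -0.18 ± 0.28, and HS2ST1, which sulfates the uronic acid it makes, by -0.03 ± 0.33. HS3ST1, HS3ST4, HS3ST5, HS3ST6 and HS6ST3 were too dim to test.

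The secreted endosulfatases SULF1 and SULF2 trim 6-O-sulfates from finished chains, and SULF1 is known in the chick from the floor plate and somites. SULF1 had 64.1, 231, 207 and 194 on neural fold arrays 1 to 4, against 197, 451, 474 and 604 on neural plate arrays 1 to 4. Neural plate array 1 lay inside the fold range, while within each number the fold array was lower, by 1.41, 0.92, 1.14 and 1.56 on the log2 scale. Fold array 1 was at background. The change was -1.26 ± 0.44 (limma adjusted p = 0.40). Blocking on the array number gave an SE of 0.15 and an adjusted p of 0.031. When both arrays numbered 1 were left out, the change was -1.21 ± 0.15 (adjusted p = 0.016). The adjusted p ran from 0.16 to 0.76 when a single array was left out. The arrays numbered 1 carry most of the pairing. They also had the highest 3' to 5' ratios of GAPDH, a sign of RNA quality. Both were at 1.22 or more, while the other 6 lay between 0.851 and 1.04. The same ratio of beta-actin did not set them apart in this way. On neural fold array 1 it was 1.36, the lowest of all arrays. On neural plate array 1 it was 1.74, within the 1.57 to 1.99 of the other neural plate arrays. The part of RNA quality in the SULF1 values was not tested.

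SULF1 has 7 probe sets, and 6 of them had a lower mean in neural fold. These were 5 of the 6 tested and the 1 too dim to test. The second brightest had 48, 194, 131 and 181 in neural fold, against 131, 499.6, 404 and 433 in neural plate (-1.30 ± 0.50, adjusted p = 0.48, and 0.016 with the block). The third had 151, 51.3, 45 and 47.7 in neural fold, against 113, 258, 169.6 and 254 in neural plate (-1.33 ± 0.39), and here array 1 was the highest of the fold arrays. Its values on fold arrays 2 to 4 lay below the background limits of 77.5, 84 and 74.6, so the size of its change is uncertain. The exception had 235, 35.1, 84.3 and 42.5 in neural fold, against 72.9, 97.6, 40.6 and 110.5 in neural plate, a change of 0.02 ± 0.51 near background. Of 6 tested probe sets, the block called 2 lower (0.872% of all probe sets were called lower in that fit). Without both arrays numbered 1, 3 were called lower (1.23% of all probe sets) and all 6 had a change below 0.

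SULF2 had 115, 202, 235 and 184 in neural fold, against 108, 408, 381 and 364 in neural plate. On arrays 2 to 4 every fold value lay below every plate value (share over all genes not computed). The arrays numbered 1 were alike and low. The change was -0.62 ± 0.42 (adjusted p = 0.91). Leaving out both arrays numbered 1 gave -0.85 ± 0.13 (adjusted p = 0.030), whereas leaving out a single array gave -1.04 to -0.43 (adjusted p 0.12 to 1.00) and no call. Its other probe set differed by -0.48 ± 0.24. Ventral and midline markers were also lower in neural fold. The summed level of 7 ventral markers was 1631 to 2349 in neural fold, against 10634 to 13334 in neural plate. That of 5 notochord and prechordal markers was 997 to 1476 in neural fold, against 10950.3 to 17427 in neural plate. Of those 5, 3 were called lower, and GSC was at background on all 4 fold arrays. Within neural plate, both sums were highest on array 1, but the single markers were divided. NKX6-2, OLIG2, FOXA1, CHRD and TBXT were highest on that array. FOXA2, NKX6-1, PTCH1 and NOTO were lowest on it, as were SULF1 and SULF2, and SHH, GSC and NOG lay between. For 6 head mesoderm markers the sum was 1492 to 1716 in neural fold, against 1764 to 2519.8 in neural plate, with 0 called. Of 5 tested, 3 had a change below 0, TWIST1 (-1.98 ± 0.53), FOXC2 (-0.87 ± 0.30) and PRRX1 (-0.29 ± 0.29). The other 2 had a change above 0, TBX1 (1.17 ± 0.42) and MEOX1 (0.07 ± 0.16). TBX1 was above background on 2 of 4 plate arrays. Of 4 endoderm markers SOX17 was called lower, with sums of 1152 to 2095 in neural fold, against 2755 to 3879 in neural plate. The others were not called, with changes of -1.42 ± 0.36 (APOA1), -0.16 ± 0.21 (HHEX) and 0.43 ± 0.23 (TTR). The summed level of 5 neural markers, of which CDH2 and SOX2 were called lower, was 22636.5 to 24379 in neural fold, against 29025 to 34482 in neural plate. That of 5 blood and endothelial markers, with 0 called, was 301 to 631 in neural fold, against 803 to 2155 in neural plate. Among them LMO2 differed by -2.39 ± 0.46 (limma adjusted p = 0.0504). It was called lower by limma with the array number as a block (adjusted p = 0.0062) and without both arrays numbered 1 (0.0023). TAL1 (-1.06 ± 0.64) and KDR (-0.27 ± 0.75) were called in none of these fits. Of the tested neural, head mesoderm, endoderm, blood and endothelial markers, TWIST1, PRRX1, SOX17, HHEX, LMO2 and KDR were lowest on neural plate array 1. SOX1, OTX2, CDH2, FOXC2, MEOX1 and APOA1 were highest on it, and the others lay between. The part of any of these cell types in the SULF values was not tested.

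**Figure D2:**
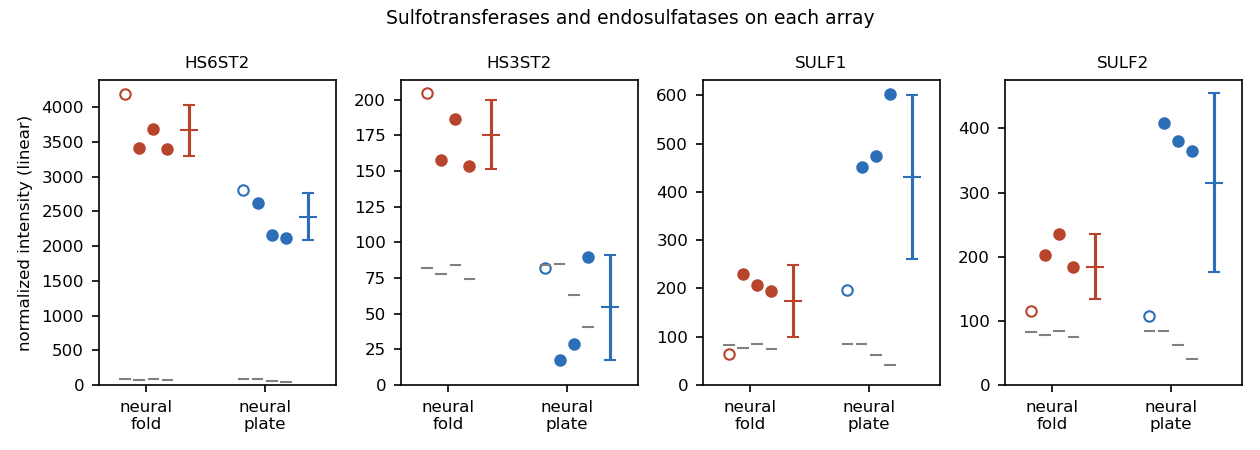
Normalized intensity (linear scale from 0) of HS6ST2, HS3ST2, SULF1 and SULF2 on each array, neural fold in red and neural plate in blue, with arrays numbered 1 as open circles, the mean with SD beside the points (n = 4) and each array's background limit as a grey tick. HS6ST2 and HS3ST2 do not overlap between the tissues, and SULF1 and SULF2 separate once the open circles are set aside. The share of all genes that separate in this latter way was not computed.

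**Figure D3:**
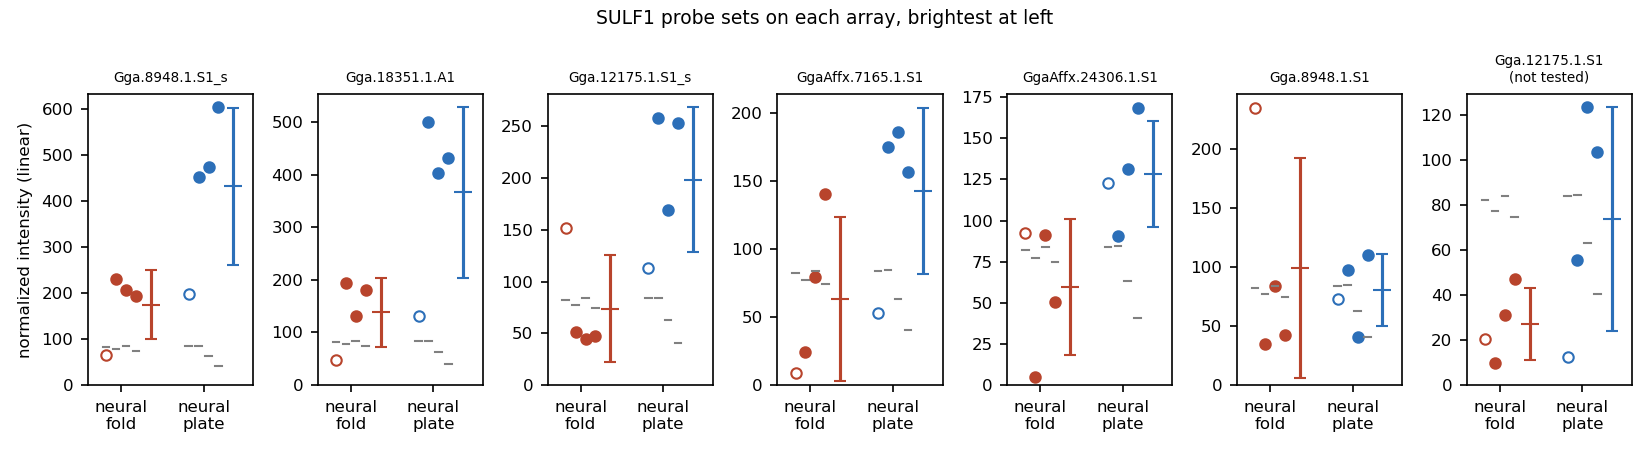
Normalized intensity (linear scale from 0) of the 7 SULF1 probe sets on each array, from the brightest at left, with colours, open circles, means with SD (n = 4) and background ticks marking neural fold, neural plate, arrays numbered 1 and limits. The mean is lower in neural fold in 6 of 7 panels, 1 of which was too dim to test. The exception lies near background, and in the third panel the neural fold arrays other than number 1 lie below their limits.

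Of the enzymes that build and sulfate chondroitin, 5 of 6 were tested and 0 called, and 4 had an interval within a 2-fold difference. CHSY1, which builds the chondroitin backbone, had 1602, 1208, 1219 and 1315 in neural fold, against 1737, 1385, 1093 and 1400.2 in neural plate. The ranges overlapped, with a change of -0.06 ± 0.19 (95% interval -0.49 to 0.36). CHST15, which adds a further sulfate to chondroitin, differed by 0.09 ± 0.18, CHST12, a 4-O-sulfotransferase, by 0.16 ± 0.28, and CHST3, a 6-O-sulfotransferase, by 0.14 ± 0.33. CHST13, another 4-O-sulfotransferase, had an interval of -1.28 to 1.28. CHSY3 was too dim to test.

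CHST10 sulfates the HNK-1 epitope, a sugar long used to mark migrating neural crest cells. It had 694, 971, 961 and 858 in neural fold, against 803, 1364, 1131 and 1224 in neural plate. The fold array was lower in each of the 4 same-numbered pairs (share over all genes not computed), with a change of -0.36 ± 0.21 (adjusted p = 0.82). Its 3 probe sets had changes of -0.47 to -0.35. The enzymes that build the sugar beneath that sulfate, B3GAT1 and B3GAT2, differed by 0.19 ± 0.42 and 0.04 ± 0.27. Of the sulfotransferases for keratan sulfate and other N-acetylglucosamine or N-acetylgalactosamine chains, CHST2 differed by -0.29 ± 0.16, CHST6 by -0.12 ± 0.29 and CHST1 by -0.07 ± 0.25, with 0 called. CHST4, CHST8 and CHST9 were too dim to test.

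The 12 members too dim to test had intensities of 4.71 to 236 on single arrays. CHST4 and GPC6 were above background on 0 of 8 arrays, and the other 10 on at most 4. Among the 35 tested, array 1 was the highest array in both tissues for 12 members (34.3%, against 26.2% of all tested genes), HSPG2, EXTL3, AGRN and GPC4 among them. It was the lowest in both for 10 (28.6%, against 32.9% of all tested genes), among them SULF1, SULF2, SDC1 and CHST10. Array 1 was thus at the same extreme in both tissues for 22 of 35 members. The shares above show this pattern over all tested genes too, so it is not particular to the members.

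Around these members, 70 of 79 further listed genes of the same pathways were measured and 52 tested. Of these 52, 0 were called higher and 1 lower in neural fold, a share near the 1.75% of all genes. With the array number as a block 1 was called in each direction, against 2.3% of all genes. Without both arrays numbered 1, 2 were called higher and 1 lower, against 1.48% and 1.57% of all genes. The tissues did not overlap for 3 of the 52 with higher and 3 with lower values in neural fold, against 3.55% and 4.5% of all genes. Their median change was -0.02, against -0.01 over all genes. The gene called was VCAN, versican, a large chondroitin sulfate proteoglycan that binds hyaluronan. It had 4261, 4031, 4073 and 3806 in neural fold, against 7378, 6597, 6835 and 7028 in neural plate. The tissues lay far apart, with a change of -0.78 ± 0.13 (1.72-fold lower, adjusted p = 0.029), and its second probe set differed by -0.53 ± 0.16 (adjusted p = 0.26). VCAN was not past the threshold without neural fold array 2, 3 or 4 or neural plate array 2, 3 or 4 (adjusted p 0.084 to 0.12), with no filter on dim probe sets (0.12) or with median centring (0.74). It was the only 1 of 7 tested chondroitin and dermatan sulfate core proteins called. The sums of the ventral, midline, neural, head mesoderm, endoderm and blood or endothelial markers all lay in the same direction as VCAN. The part of these cell types in its value was not tested. NCAN, neurocan, differed by -0.71 ± 0.64, with array 1 far above the others in both tissues.

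Of 6 tested hyaluronan genes, 0 were called. HAPLN1, the link protein that fastens versican to hyaluronan, had 1445, 4122.5, 3830.1 and 3981 in neural fold, against 381, 855, 859 and 1024 in neural plate. Every fold array was above every plate array, and the difference was 1.88 to 2.25 in the 4 same-numbered pairs. The change was 2.05 ± 0.42 (4.15-fold higher, adjusted p = 0.073), and it was called after blocking on the array number (adjusted p = 0.0082), without both arrays numbered 1 (0.0015) and without neural fold array 1 alone (2.41, adjusted p = 0.016). A pseudocount of 64, the filter at the 60th percentile and an intensity trend also gave a call of HAPLN1, 6 of 18 alternative settings in all. The summed level of 10 border and crest markers was 40459 to 47472 in neural fold, against 3422 to 4470 in neural plate. The sum of the non-neural ectoderm markers was also higher in neural fold. The part of either cell type in the HAPLN1 value was not tested. TMEM2, a cell surface protein that breaks down hyaluronan in mammals, had 4749.5, 5062, 5011 and 4968 in neural fold, against 3045, 3315, 3124 and 3429 in neural plate (0.61 ± 0.13, adjusted p = 0.079). Its 3 probe sets had changes of 0.61 to 0.72. It was called under 3 of 18 alternative settings, which were without both arrays numbered 1 (0.042), with the filter at the 60th percentile and with an intensity trend. HAS2, which makes hyaluronan, differed by -0.42 ± 0.25.

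**Figure D4:**
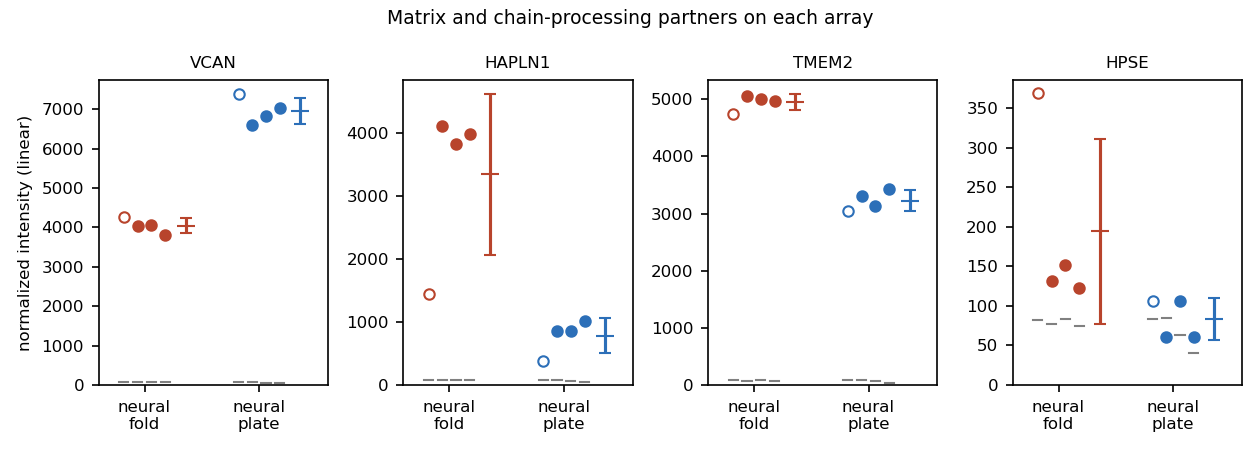
Normalized intensity (linear scale from 0) of VCAN, HAPLN1, TMEM2 and HPSE on each array, neural fold in red and neural plate in blue, with arrays numbered 1 as open circles, the mean with SD (n = 4) and background limits as grey ticks. VCAN lies lower and the other 3 genes higher on every neural fold array than on any neural plate array.

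Of 14 tested genes for linkage sugars, sulfate donors and their transport, 0 were called, with a median change of -0.01, and 12 had intervals within a 2-fold difference. FAM20B, the kinase that phosphorylates the linkage xylose, had the largest of these changes among genes above background (-0.44 ± 0.25, adjusted p = 0.80). Of 6 tested chondroitin chain enzymes outside the members 0 were called, CHPF2 having 0.35 ± 0.19, and of 11 tested genes of lysosomal breakdown 0 were called, ARSB having 0.32 ± 0.25.

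Among 5 tested carriers and regulators of heparan sulfate, 0 were called. HPSE, heparanase, which cuts the chains, had 369, 132, 152 and 123 in neural fold, against 106, 60.8, 106 and 60.9 in neural plate. The tissues did not overlap, with array 1 of neural fold far above the rest and a change of 0.98 ± 0.35 (adjusted p = 0.42), which was 0.64 without that array. HPSE lay above the background limit on all 4 fold arrays and on 3 of 4 plate arrays. Its plate values were near that limit, so the size of its change is uncertain. NOTUM, an extracellular hydrolase that acts on Wnt proteins, differed by -0.42 ± 0.15 (adjusted p = 0.39), without overlap between the tissues. COL18A1, a basement membrane collagen with heparan sulfate chains, differed by -0.10 ± 0.24. Of 3 tested genes around the HNK-1 epitope 0 were called. NCAM1, one of its carriers, had 574, 710.2, 893 and 799.5 in neural fold, against 1147, 1085, 1227 and 1102 in neural plate. These values did not overlap (-0.62 ± 0.17, adjusted p = 0.20), but a dimmer NCAM1 probe set differed by 0.61 ± 0.51, in the opposite direction.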

How the data were processed

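One Affymetrix GeneChip chicken genome array was hybridised per sample. The deposited values are linear intensities made by the authors with GCOS, per the submitters' processing notes. The software version and background treatment are not given in the sources used here. The mean after trimming 2% at each end was 500.1 on every array. Of 38535 probe sets, 96 controls were left out. Intensities were analysed as log2(value + 16), which understates changes of dim genes, and quantile normalized. Probe sets at or above the 40th percentile of the mean over 8 arrays (23063) were tested with limma 3.58.1 (R 4.3.3; functions lmFit and eBayes) and Benjamini-Hochberg adjustment, after a check on simulated data. The background limit was the 95th percentile of 59 control probe sets.

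Symbols came from the platform's 2016 annotation, where 27168 probe sets had 1 symbol, 177 several and 11094 none. The brightest probe set stood for a gene. No genome was used. Intensities of different probe sets depend on the probes, so their order and the marker sums are no measure of relative transcript amounts.

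The members, lists and tests were chosen with earlier results of these data known. Per-array values were due for members called, for those without overlap and changed by at least 0.5, and for those changed by at least 1 that were above background on all 4 arrays of a tissue. This gave 3 genes. Of the other lists, genes called and, per list, the largest change above background were named. Values of the other members, and B3GAT1, B3GAT2, TMEM2, HAS2, NCAN, NOTUM and COL18A1, were added after values were seen.

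Numbers 1 to 4 recur in both tissues. Deviations of same-numbered arrays from their tissue means correlated at 0.62, 0.19, 0.29 and 0.21, which by the rule used (all over 0.1) was taken as pairing, on the data alone. Arrays numbered 1 carried it, since arrays 2 to 4 correlated with differently numbered ones at 0.077 to 0.28. Number 2 of neural fold correlated more with number 4 of neural plate (0.28) than with its own. The share of all genes with the same direction in all 4 same-numbered pairs was not computed. That agreement also held for members with small changes, such as HS6ST1 and NDST1. The 3' to 5' ratio of beta-actin was 1.77 ± 0.284 for neural fold and 1.80 ± 0.188 for neural plate (SD, n = 4, exact two-sided permutation p = 0.857, where 0.0286 is the smallest possible), and that of GAPDH 1.09 ± 0.216 for neural fold and 0.995 ± 0.158 for neural plate (exact permutation p = 0.486). The number of arrays limits the precision.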

Additional observations from a re-analysis of the deposited data

Results flagged for a closer look

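Within a tissue, 11 of 90 sets of 4 arrays held a value far from the other 3, where chance gives about 1 in 20, and 8 of the 11 lay on an array numbered 1. In neural fold, array 1 was low for SULF1 (64.1, against 194 to 231 on the others), SDC1 (1115, against 1596 to 1717), EXT1 (407, against 744 to 829) and HAPLN1 (1445, against 3830.1 to 4122.5). Its median intensity before normalization was high (195.8, against 106.5 to 110). In neural plate, array 1 was low for SULF2 (108, against 364 to 408) and CHST6 (1328, against 1935 to 2044) and high for GPC4 (2478, against 1431 to 1558). Neural fold array 2 was low for CHST3 (92.2, against 192 to 196), EXTL1 (57.4, against 267 to 293) and XYLT1 (216, against 241 to 246).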

How the results depend on the processing

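Among 15 single gene changes under their alternatives, 267 comparisons in all, 0 changed sign, 247 kept their side of the threshold, 12 passed it and 8 no longer did. The number of members called was 0 under every setting but 2, and 0 with any single array left out. With array numbers as a replicate block it was 1 (SULF1, -1.26, adjusted p = 0.031), and without both arrays numbered 1 it was 2 (SULF1, -1.21, and SULF2). Over all probe sets the 295 calls became 398 with the block, 540 without both arrays numbered 1 (257 higher, 283 lower), 149 with median centring (89 higher, 60 lower), and 139 to 301 without one array (86 to 162 higher, 49 to 141 lower). With no filter on dim probe sets, 89 were lower. Other pathway genes called numbered 1 as reported, 0 with median centring or no filter, 2 with a pseudocount of 64 or the block, and 3 with the filter at the 60th percentile, an intensity trend or without both arrays numbered 1, and 0 to 2 without one array. The block changed no call of a member other than that of SULF1. The causes were not tested. The 12 members below the filter and HS3ST2 in neural plate are limited by signal over background.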
